A study of Homo sapiens with 8 samples.

Results

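The genes described here encode 7 receptors with which islet cells sense lipids, amino acids and calcium: GPR119, FFAR1, FFAR4, FFAR2, FFAR3, GPR142 and CASR. They were chosen by symbol and make up 7 of the 38592 genes in the deposited count table, and all 7 passed the filter on low counts, which kept 22207 genes. RNA of whole cultures was sequenced after islet differentiation of the H1 line of human embryonic stem cells, which is an established line. The cells were wild type (WT) or had lost by knockout (KO) 1 of the genes ISL1, PAX6 and PDX1, which encode homeodomain transcription factors of islet cells. On day 11 each culture received either a vector labelled BFP, which carries blue fluorescent protein alone, or one labelled ISL1 OE, which carries ISL1 and BFP in one construct, linked by an internal ribosome entry site, and RNA was taken on day 18. Each genotype with each vector is 1 group, named for example ISL1 KO BFP. Both WT groups and PDX1 KO ISL1 OE had 2 libraries each and the 5 other groups 3 each, described by the series as biological replicates. All 8 groups share the H1 parent line. The number of clones behind each knockout was not found in the labels.

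All 7 genes encode G protein-coupled receptors. GPR119 binds monoacylglycerols and ethanolamides of fatty acids and raises cyclic AMP through Gs. FFAR1 (also called GPR40) and FFAR4 (GPR120) bind long-chain fatty acids, and FFAR1 couples mainly to Gq and augments insulin secretion in beta cells. FFAR2 (GPR43) and FFAR3 (GPR41) bind short-chain fatty acids such as acetate and propionate and couple to Gi, FFAR2 also to Gq. GPR142 responds to tryptophan and other aromatic amino acids, and CASR, the calcium-sensing receptor, responds to extracellular calcium and is tuned by amino acids. In adult islets GPR119 and FFAR1 are best known from beta and alpha cells, FFAR4 from delta cells.

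The libraries held 40959445 to 66818593 estimated counts, with 24721 to 27304 genes detected. Within groups the libraries' log2 CPM (CPM is the count relative to the library total after TMM scaling) correlated across genes at 0.981 or higher, except for pairs with PAX6 KO ISL1 OE replicate 3, which reached 0.927 and 0.936, and in PDX1 KO ISL1 OE, whose 2 libraries (replicates 2 and 4) reached 0.900. In PDX1 KO ISL1 OE the library labelled replicate 4 held 44877 CPM of INS, above both WT BFP libraries (10444 and 13286), where its partner held 324. Results that rest on either library are therefore also given for the 19 other libraries, called the reduced set, in which PDX1 KO ISL1 OE has 1 library that is assumed to vary like the other groups. ISL1 RNA was lower in ISL1 KO BFP (67.5 ± 3.88 CPM, SD, n = 3) than in WT BFP (385 ± 141, n = 2), but it was not detectably higher in the libraries labelled ISL1 OE, with log2 fold changes from −0.27 in WT to 0.54 in PDX1 KO. PAX6 RNA in PAX6 KO BFP (132 ± 30.6 CPM) and PDX1 RNA in PDX1 KO BFP (101 ± 6.44 CPM) did not differ detectably from WT BFP (189 ± 64.9 and 84.5 ± 14.9), so RNA level does not check those labels. The endocrine marker CHGA was abundant in every group, from 13347 to 40781 CPM on average. In bulk RNA, fewer cells of a type and less RNA per cell cannot be told apart. Where libraries of groups are said to overlap or not, this is a description, since the share of all genes without overlap was not counted.

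FFAR1, FFAR3 and FFAR2 lie within 100216 bases of chromosome 19 (GRCh38, GENCODE 29 annotation) together with GPR42, a near copy of FFAR3. The coding sequences of FFAR3 and GPR42 are identical at 1035 of 1041 bases (99.4%), so reads can be split between them. The 250 bases before the start that RefSeq (build GRCh38.p14) gives each gene were read for the 6 of 7 genes with an entry there. The RefSeq start is not always that of the GENCODE annotation: it is the same for FFAR4 and lies 15 bases upstream for CASR, 227 upstream for GPR119, 3650 upstream for FFAR1, and 99 and 4350 bases downstream, inside the GENCODE interval, for GPR142 and FFAR2. ISL1, PAX6 and PDX1 all carry a homeodomain, a fold that commonly reads a TAAT core, so the letters TAAT and ATTA (the same core on the other strand) were searched and stand in capitals. The sequences of the 2 genes with the core and lower counts in all 3 knockouts, GPR119 and CASR, and of the 2 genes that moved in opposite directions in PAX6 KO, FFAR1 and FFAR4, are shown.
GPR119 promoter, chrX:130385675-130385924, minus strand: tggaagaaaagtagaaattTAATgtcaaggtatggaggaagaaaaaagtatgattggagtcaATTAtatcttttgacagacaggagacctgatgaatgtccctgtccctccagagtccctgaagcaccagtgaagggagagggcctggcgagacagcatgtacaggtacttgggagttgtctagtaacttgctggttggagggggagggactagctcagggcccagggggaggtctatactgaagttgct
CASR promoter, chr3:122183418-122183667, plus strand: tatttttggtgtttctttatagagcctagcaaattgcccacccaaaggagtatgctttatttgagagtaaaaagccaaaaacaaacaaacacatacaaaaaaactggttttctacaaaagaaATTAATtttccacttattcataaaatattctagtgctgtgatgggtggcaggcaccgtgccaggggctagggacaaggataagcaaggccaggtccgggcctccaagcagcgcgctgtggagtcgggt
FFAR1 promoter, chr19:35347652-35347901, plus strand: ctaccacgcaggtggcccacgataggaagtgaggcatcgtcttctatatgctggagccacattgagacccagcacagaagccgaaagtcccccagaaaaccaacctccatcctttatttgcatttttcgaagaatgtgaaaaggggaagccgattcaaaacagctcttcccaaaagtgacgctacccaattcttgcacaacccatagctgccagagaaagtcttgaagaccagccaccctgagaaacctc
FFAR4 promoter, chr10:93566415-93566664, plus strand: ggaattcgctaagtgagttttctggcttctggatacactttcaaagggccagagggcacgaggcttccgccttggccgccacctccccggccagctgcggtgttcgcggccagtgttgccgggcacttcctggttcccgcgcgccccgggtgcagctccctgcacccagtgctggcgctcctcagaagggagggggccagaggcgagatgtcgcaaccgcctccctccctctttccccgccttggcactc
GPR119, CASR and FFAR2 each held 2 matches, in CASR overlapping each other, and FFAR1, FFAR4 and GPR142 held 0. The core is common: 47.4% of the 35116 RefSeq windows of this length hold at least 1 match, so 3 of 6 is near that share. A match is a run of letters in this window and is not a measured binding site.

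Set against each other per transcript length, in TPM (transcripts relative to all transcripts of a library), the order of the receptors' mean levels in WT BFP differed from that in each knockout with BFP. In WT BFP the mean level ran from GPR119 at 91.7 TPM through CASR at 36.2, GPR142 at 30.1, FFAR1 at 18.1 and FFAR2 at 9.27 to FFAR3 at 1.39 and FFAR4 at 1.26 TPM. Some of these neighbours were not apart in single libraries: in WT BFP replicate 3 GPR142 (34.3 TPM) exceeded CASR (29.8), and in WT ISL1 OE the mean of FFAR4 (2.05) exceeded that of FFAR3 (1.92). By its mean FFAR2 stood behind 4 other receptors in WT BFP and first in ISL1 KO BFP (25.1 TPM), PAX6 KO BFP (23.5) and PDX1 KO BFP (45.5). In ISL1 KO BFP that lead was within the spread, since GPR142 overlapped with FFAR2 and in replicate 3 exceeded it (28.3 against 27.3). FFAR1 was the lowest of the 7 in PAX6 KO BFP at 0.0671 TPM, and FFAR4 the lowest in ISL1 KO BFP at 0.109 TPM. The sum of the 7 means was 188 TPM in WT BFP and 67.7, 73.0 and 106 TPM in ISL1 KO, PAX6 KO and PDX1 KO BFP.

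**Figure D1:**
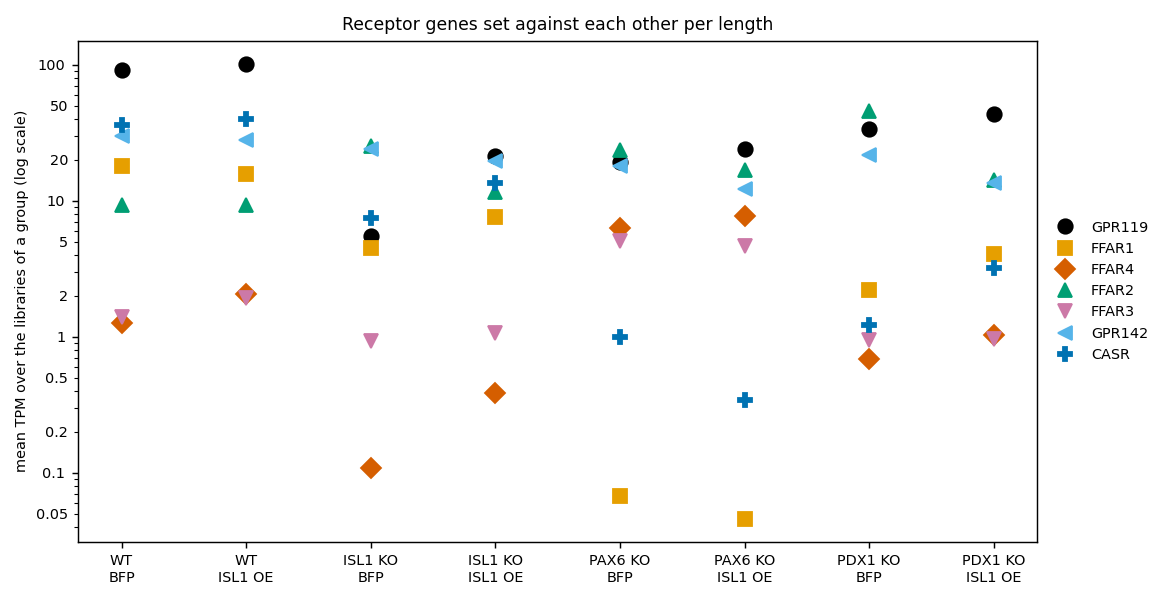
Mean level of each receptor gene in TPM (log axis) in the 8 groups, 1 symbol per gene. GPR119 is the highest symbol in both WT groups, FFAR2 is the highest in the 3 knockouts with BFP (in ISL1 KO close to GPR142), and FFAR1 lies at 0.0671 and 0.0459 TPM in the 2 PAX6 KO groups.

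Against WT BFP, each knockout with the BFP vector had 4 of the 7 receptors called at an adjusted p under 0.05 by edgeR's quasi-likelihood test with Benjamini-Hochberg adjustment over all genes tested. In ISL1 KO BFP GPR119, FFAR4, CASR and FFAR1 fell and none rose, where 6.52% of all genes were called in either direction. In PAX6 KO BFP FFAR1, CASR and GPR119 fell and FFAR4 rose, beside 6.65% of all genes. In PDX1 KO BFP CASR, FFAR1 and GPR119 fell and FFAR2 rose, beside 11.4% of all genes. The median log2 fold change of the 7 was −2.30, −1.14 and −1.06 in ISL1 KO, PAX6 KO and PDX1 KO, and over all genes tested it was 0.03, 0.00 and 0.02. The 3 comparisons share the 2 WT BFP libraries, so a chance value of those libraries enters all of them. All libraries of these groups are in the reduced set, where SEs were smaller (0.18 against 0.35 for FFAR2 in ISL1 KO) and all 7 receptors were called in each knockout, with the same signs. There calls were more frequent over all genes too, at 28.4%, 28.7% and 33.3% in ISL1 KO, PAX6 KO and PDX1 KO.

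**Figure D2:**
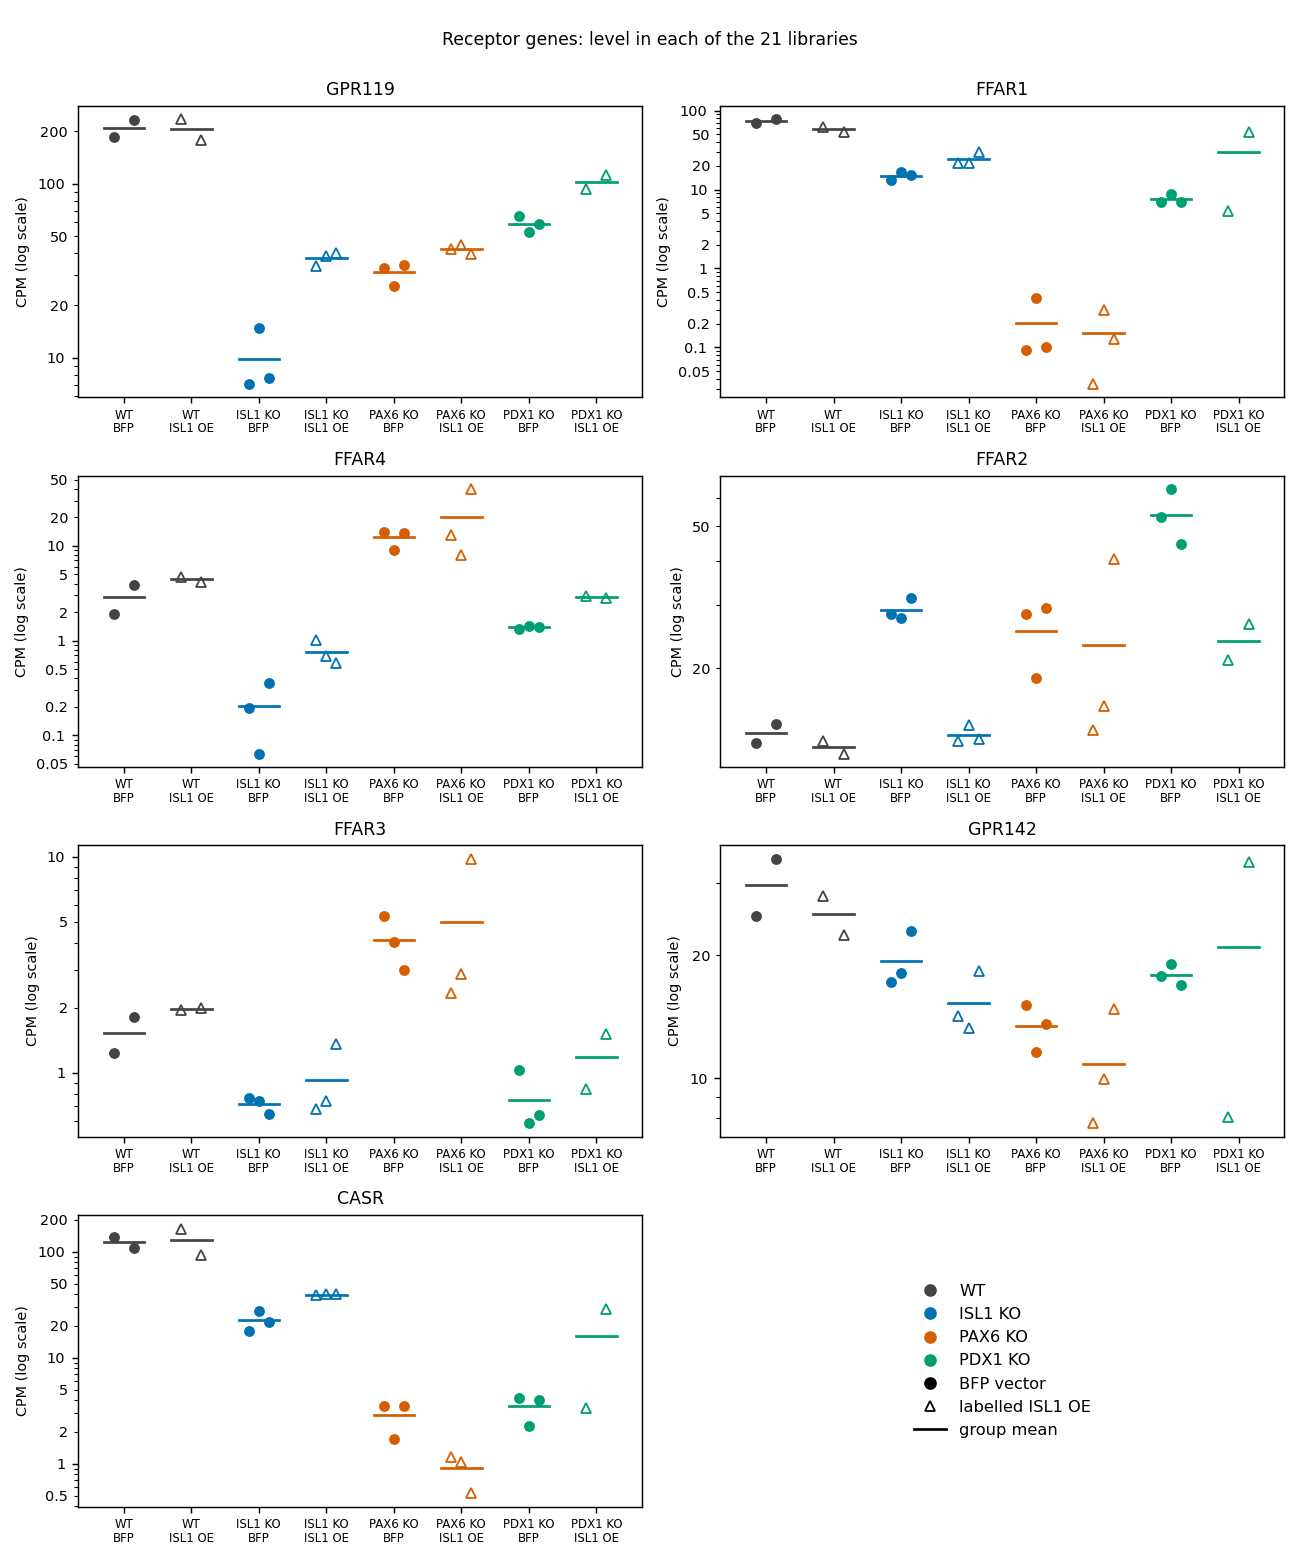
Level of each receptor gene in CPM after TMM scaling (log axis) in every library, with circles for BFP, open triangles for libraries labelled ISL1 OE and a line at the group mean. GPR119 in ISL1 KO BFP (7.10 to 14.9 CPM) and FFAR1 in both PAX6 KO groups (0.0345 to 0.420 CPM) lie far below WT, and PDX1 KO ISL1 OE is split between its 2 libraries for FFAR1, GPR142 and CASR.

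GPR119 (ENSG00000147262, chromosome X, 130384440 to 130385447, minus strand) fell in all 3 knockouts and the most in ISL1 KO. Its WT BFP libraries held 185 and 232 CPM and those of WT ISL1 OE 235 and 178 CPM. ISL1 KO BFP held 7.10, 14.9 and 7.68 CPM, PAX6 KO BFP 33.0, 26.0 and 34.2, and PDX1 KO BFP 64.8, 52.5 and 58.4. Every knockout library lay below every WT library, and the BFP groups of the 3 knockouts did not overlap. The log2 fold change against WT BFP was −4.40 ± 0.27 (SE) in ISL1 KO (adjusted p = 2.18e-07), −2.75 ± 0.27 in PAX6 KO (adjusted p = 2.30e-05) and −1.83 ± 0.27 in PDX1 KO (adjusted p = 4.97e-04), in edgeR's fit. These 3 calls held whichever of the 5 libraries of a comparison was left out. GPR119 was also lower in ISL1 KO BFP than in PAX6 KO BFP (−1.65 ± 0.24, adjusted p = 8.94e-04) and than in PDX1 KO BFP (−2.56 ± 0.24, adjusted p = 2.03e-05). PAX6 KO BFP was lower than PDX1 KO BFP (−0.91 ± 0.24, adjusted p = 0.0434), but that call was lost in each of the 6 fits that left out 1 library (adjusted p 0.0875 to 0.223).

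The order of the 8 GPR119 group means was WT BFP, WT ISL1 OE, PDX1 KO ISL1 OE, PDX1 KO BFP, PAX6 KO ISL1 OE, ISL1 KO ISL1 OE, PAX6 KO BFP and ISL1 KO BFP, spanning 21.1-fold. Neighbours overlapped in 3 of the 7 steps: the 2 WT groups, PAX6 KO ISL1 OE with ISL1 KO ISL1 OE, and the latter with PAX6 KO BFP. The genes most like GPR119 over the 21 libraries by Pearson correlation of log2 CPM were ACVR1C (0.94), PLPPR5 (0.94), NECAB1 (0.93) and LMO2 (0.92). These and later correlations rest on 8 groups that share genotypes and depth, and are descriptions. Among hormone genes GPR119 followed SST, the somatostatin gene of delta cells (0.92), more closely than INS (0.25), and its correlation with ISL1 was 0.78. The summed level of 8 alpha cell markers was lower in the knockouts too. It was 37974 to 51864 CPM in WT BFP, 654 to 700 in ISL1 KO BFP, 1054 to 1692 in PAX6 KO BFP and 15426 to 19631 in PDX1 KO BFP. GCG, 1 of the 8, averaged 41070, 80.5, 38.2 and 15620 CPM in these groups. It weighs heavily in the sums of WT and PDX1 KO. The part of cell type makeup in the GPR119 result was not tested. The single GPR119 transcript of GENCODE 29 took 17.1% of the gene's summed count (11.6% to 27.4% by library). The rest was assigned to transcripts that this annotation does not hold.

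FFAR1 (ENSG00000126266, chromosome 19, 35351552 to 35353862, plus strand) was all but lost in PAX6 KO. WT BFP libraries held 70.1 and 78.5 CPM, or 3531 and 2857 counts. PAX6 KO BFP libraries held 0.0928, 0.420 and 0.100 CPM, which is 5, 26 and 6 counts, and PAX6 KO ISL1 OE libraries held 2, 21 and 7 counts. No library of another group had fewer than 334 counts. The log2 fold change of PAX6 KO BFP against WT BFP was −8.47 ± 0.76 (edgeR, adjusted p = 2.89e-05), and it stayed between −9.52 and −8.14 when 1 library was left out.

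FFAR1 was also lower in the other knockouts, by less. ISL1 KO BFP held 13.2, 16.8 and 15.2 CPM and PDX1 KO BFP 6.88, 8.74 and 6.92, all under the WT libraries. PDX1 KO BFP fell by 3.31 ± 0.65 on the log2 scale against WT BFP (edgeR, adjusted p = 0.00409). ISL1 KO BFP fell by 2.30 ± 0.65 (adjusted p = 0.0420), a call lost whichever of the 5 libraries was left out (adjusted p 0.104 to 0.191) although the fold change stayed between −2.38 and −2.21. Between knockouts, FFAR1 was lower in PAX6 KO BFP than in ISL1 KO BFP (6.17 ± 0.70 for ISL1 KO against PAX6 KO, adjusted p = 1.60e-04) and than in PDX1 KO BFP (−5.16 ± 0.70, adjusted p = 6.46e-04). ISL1 KO and PDX1 KO BFP did not overlap, but their difference of 1.01 ± 0.58 did not pass with all libraries (adjusted p = 0.387) and passed in the reduced set (1.02 ± 0.28, adjusted p = 0.0141), where 26.0% of all genes were called.

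Over the groups FFAR1 spanned 491-fold between its highest mean, in WT BFP, and its lowest, in PAX6 KO ISL1 OE. The order of means ran WT BFP, WT ISL1 OE, PDX1 KO ISL1 OE, ISL1 KO ISL1 OE, ISL1 KO BFP, PDX1 KO BFP, PAX6 KO BFP, PAX6 KO ISL1 OE. The third place rests on replicate 4, since the PDX1 KO ISL1 OE libraries held 5.32 and 54.0 CPM. Most like FFAR1 were NTNG1 (0.98), G6PC2, a beta cell glucose-6-phosphatase gene (0.95), PLIN3 (0.93) and CCK (0.92). Of the other receptors CASR followed it most closely (0.87), and GHRL, the ghrelin gene of epsilon cells, ran opposite (−0.88). The summed level of 8 beta cell markers was 11212 to 13967 CPM in WT BFP, 1517 to 2139 in PAX6 KO BFP and 794 to 969 in PDX1 KO BFP. INS, 1 of the 8, averaged 11865, 1545 and 286 CPM in these groups and weighs heavily in the sum. INS was not called between PAX6 KO BFP and PDX1 KO BFP (2.43 ± 0.85, edgeR, adjusted p = 0.167). Like FFAR1, the markers G6PC2 (−9.37), SLC30A8 (−1.92 ± 0.24) and NKX6-1 (−1.36 ± 0.33) were called lower in PAX6 KO BFP than in PDX1 KO BFP. No marker of the list was called higher. The part of beta cell number in the FFAR1 result was not tested. All FFAR1 counts fell on its 1 annotated transcript.

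FFAR4 (ENSG00000186188, chromosome 10, 93566665 to 93604480, plus strand) moved in opposite directions in ISL1 KO and PAX6 KO. WT BFP libraries held 1.89 and 3.90 CPM. ISL1 KO BFP held 0.194, 0.0642 and 0.359 CPM, or 12, 4 and 25 counts, and PAX6 KO BFP held 13.9, 9.10 and 13.8 CPM. Neither knockout group overlapped with WT BFP. FFAR4 fell by 3.78 ± 0.62 on the log2 scale in ISL1 KO BFP (edgeR, adjusted p = 0.00132), a call kept in all 5 fits that left out 1 library. It rose by 2.09 ± 0.55 in PAX6 KO BFP (adjusted p = 0.0431), a call lost whichever of the 5 libraries was left out (adjusted p 0.053 to 0.352, fold change 1.69 to 2.73) and with a term for the sequencing lane set (2.10 ± 0.56, adjusted p = 0.0514). The direct comparison of ISL1 KO BFP with PAX6 KO BFP gave −5.87 ± 0.56 (adjusted p = 3.03e-05), and it held in all 6 such fits. PDX1 KO BFP libraries, at 1.32, 1.43 and 1.40 CPM, lay below both WT BFP libraries without passing the test (−1.06 ± 0.56, adjusted p = 0.259). They stood above ISL1 KO BFP (−2.72 ± 0.57 for ISL1 KO against PDX1 KO, adjusted p = 0.00899; 0.0527 without ISL1 KO BFP replicate 1 and 0.0507 without replicate 2) and below PAX6 KO BFP (3.15 ± 0.50 for PAX6 KO against PDX1 KO, adjusted p = 0.00214).

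The FFAR4 group means spanned 99.0-fold, in the order PAX6 KO ISL1 OE, PAX6 KO BFP, WT ISL1 OE, WT BFP, PDX1 KO ISL1 OE, PDX1 KO BFP, ISL1 KO ISL1 OE, ISL1 KO BFP. Only the first pair and the pair of WT BFP and PDX1 KO ISL1 OE overlapped among neighbours. The highest FFAR4 value, 39.9 CPM, came from PAX6 KO ISL1 OE replicate 3, the other libraries of that group holding 13.1 and 8.01 CPM. Most like FFAR4 were CRH (0.94), MTURN (0.94), FRRS1L (0.94) and PDE8B (0.93). FFAR4 also followed GHRL (0.88) and FFAR3 (0.85), and correlated with SST at 0.54. The summed level of the 4 epsilon cell markers was 261 to 281 CPM in WT BFP, 3065 to 4509 in PAX6 KO BFP and 124.2 to 142.9 in ISL1 KO BFP. In PDX1 KO BFP it was 251.5 to 302.9 CPM and overlapped with WT BFP, where FFAR4 lay below WT BFP. Of these 4 genes 3 rose in PAX6 KO BFP. In ISL1 KO BFP SPTSSB was called lower (−2.49 ± 0.42, edgeR, adjusted p = 0.00180) and GHRL was not called (−0.94 ± 0.58, adjusted p = 0.382). The part of epsilon-type cells in the FFAR4 result was not tested. Adipocytes, a known site of FFAR4, left almost no trace, the summed level of 4 markers being at most 0.464 CPM in any library.

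FFAR4-201 and FFAR4-202, 2 of the FFAR4 isoforms that GENCODE 29 classes as coding, differ by 48 bases, or 16 codons, in the coding sequence. The longer form, with 1134 coding bases against 1086, had 0 counts in all 21 libraries, and the shorter took 99.2% of the FFAR4 count. The extra bases, coding bases 698 to 745 of the longer form, are shown in capitals with 12 bases on either side, because they are the piece that tells the isoforms apart.
FFAR4 insert, from the GENCODE 29 transcript sequence: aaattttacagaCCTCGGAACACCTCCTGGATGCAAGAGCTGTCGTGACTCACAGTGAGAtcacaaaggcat
The estimated counts come from a program that divides reads between isoforms, so a count of 0 is an estimate. RBP4 lies on the other strand inside the outer FFAR4 interval, at 93591687 to 93601744, and the library kit does not mark strand. Of the FFAR4 transcripts, the 1 that reaches across RBP4, FFAR4-203, is also classed as coding and took 0.775% of the FFAR4 count.

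FFAR2 (ENSG00000126262, chromosome 19, 35443907 to 35451767, plus strand) stood above WT in every knockout library with BFP and highest in PDX1 KO. WT BFP held 12.3 and 13.9 CPM, and the PDX1 KO BFP libraries held 53.0, 63.7 and 44.5 CPM. ISL1 KO BFP held 28.3, 27.7 and 31.5 CPM and PAX6 KO BFP 28.3, 18.7 and 29.4 CPM, so no knockout library with BFP fell to a WT level. FFAR2 rose by 2.03 ± 0.35 on the log2 scale in PDX1 KO BFP (edgeR, adjusted p = 0.00256; 0.0544 without WT BFP replicate 1). The differences of 1.15 ± 0.35 in ISL1 KO and 0.95 ± 0.35 in PAX6 KO did not pass in edgeR with all libraries (adjusted p = 0.0699 and 0.130). Both differences passed in the reduced set, at 1.14 ± 0.18 (adjusted p = 2.79e-04) and 0.97 ± 0.18 (adjusted p = 9.90e-04). With all libraries DESeq2 called the ISL1 KO difference (1.13 ± 0.38, adjusted p = 0.0302), beside 11.7% of all genes.

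Across the 8 groups FFAR2 spanned 4.49-fold. Its means ran PDX1 KO BFP, ISL1 KO BFP, PAX6 KO BFP, PDX1 KO ISL1 OE, PAX6 KO ISL1 OE, WT BFP, ISL1 KO ISL1 OE, WT ISL1 OE, and 5 of the 7 neighbouring pairs overlapped. Most like FFAR2 were DNAJC12 (0.97), BAIAP2L2 (0.96), SSBP4 (0.95) and AC091138.1 (0.94). Markers of enterochromaffin-like cells, which make serotonin, moved the same way: the summed level of 6 markers was 800 to 932 CPM in WT BFP, 2157 to 2910 in ISL1 KO BFP, 1248 to 1965 in PAX6 KO BFP and 3463 to 3978 in PDX1 KO BFP. Their part in the FFAR2 result was not tested. Leukocytes are a known site of FFAR2. The pan-leukocyte gene PTPRC was at 0 to 0.160 CPM in every library, and the summed level of the 6 immune markers was 427 to 480 CPM in WT BFP, 1020 to 1452 in ISL1 KO BFP, 191 to 427 in PAX6 KO BFP and 109.1 to 148.6 in PDX1 KO BFP. Most of that sum was LYZ, the lysozyme gene, which averaged 437 CPM in WT BFP, 1230 in ISL1 KO BFP and 81.6 in PDX1 KO BFP. CD68, a macrophage marker, averaged 15.2 CPM in WT BFP, 54.9 in ISL1 KO BFP, 19.3 in PAX6 KO BFP and 45.7 in PDX1 KO BFP. Its order differed from that of FFAR2, which averaged 29.1 CPM in ISL1 KO BFP and 53.7 in PDX1 KO BFP. CD14, another of the 6 markers, averaged at most 0.143 CPM in any group. CD68 rose by 1.85 ± 0.26 on the log2 scale in ISL1 KO (edgeR, adjusted p = 7.02e-04) and by 1.59 ± 0.26 in PDX1 KO (adjusted p = 0.00160). Of the 4 immune markers tested 2 were called higher in ISL1 KO, 0 were called in PAX6 KO, and 1 was called higher and 1 lower in PDX1 KO. With the vector labelled ISL1 OE, CD68 was lower than with BFP in ISL1 KO, PAX6 KO and PDX1 KO (−1.37 ± 0.23, −1.47 ± 0.23 and −1.24 ± 0.26, adjusted p = 0.0105, 0.00903 and 0.00745). The part of immune markers in the FFAR2 result was not tested. Of the FFAR2 count 96.2% fell on FFAR2-201 and 3.82% on FFAR2-202.

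FFAR3 (ENSG00000185897, chromosome 19, 35358460 to 35360485, plus strand) was a low gene that stood highest in PAX6 KO. WT BFP libraries held 1.23 and 1.81 CPM, or 62 and 66 counts. PAX6 KO BFP held 5.33, 4.04 and 2.98 CPM, ISL1 KO BFP 0.760, 0.738 and 0.646, and PDX1 KO BFP 1.03, 0.582 and 0.640. All PAX6 KO BFP libraries lay above WT and all libraries of the other knockouts with BFP below it. None of these differences from WT BFP passed with all libraries: 1.44 ± 0.51 in PAX6 KO, −1.08 ± 0.53 in ISL1 KO and −1.02 ± 0.53 in PDX1 KO (edgeR, adjusted p = 0.125, 0.250 and 0.248). In the reduced set they passed at 1.45 ± 0.33, −1.09 ± 0.34 and −1.04 ± 0.34 (adjusted p = 0.00421, 0.0238 and 0.0269). The knockouts differed among themselves with all libraries, ISL1 KO BFP being lower than PAX6 KO BFP (−2.52 ± 0.46, adjusted p = 0.00686) and PAX6 KO BFP higher than PDX1 KO BFP (2.45 ± 0.47, adjusted p = 0.00736; 0.0601 without PDX1 KO BFP replicate 2 and 0.0514 without replicate 3).

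The FFAR3 means spanned 7.02-fold, with PAX6 KO ISL1 OE and PAX6 KO BFP on top and PDX1 KO BFP and ISL1 KO BFP last. The top value of 9.82 CPM was again PAX6 KO ISL1 OE replicate 3, next to 2.34 and 2.88 CPM in its partners. Most like FFAR3 were CRH (0.93), AL353653.1 (0.93), BTBD17 (0.92) and ANKRD7 (0.91), and its correlation with GHRL was 0.88. The summed epsilon cell markers given with FFAR4 were also higher than WT BFP in PAX6 KO BFP and lower in ISL1 KO BFP. In PDX1 KO BFP their sum overlapped with WT BFP, where FFAR3 lay below it. The part of these markers in the FFAR3 result was not tested. CRH headed the list of FFAR4 as well. GPR42, the near copy, had 0 to 68 counts per library and was likewise highest in PAX6 KO, at 14 to 32 counts in PAX6 KO BFP and 19, 27 and 68 in PAX6 KO ISL1 OE. Reads of the 2 genes may have been exchanged, so FFAR3 values are uncertain to that extent. FFAR3-201 took 73.9% of the FFAR3 count and FFAR3-202 26.0%, with a range of 28.1% to 92.6% by library for the former.

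GPR142 (ENSG00000257008, chromosome 17, 74367407 to 74372622, plus strand) varied least, spanning 2.74-fold over the group means. WT BFP libraries held 24.9 and 34.5 CPM, ISL1 KO BFP 17.2, 18.1 and 22.9, PAX6 KO BFP 15.1, 11.6 and 13.6, and PDX1 KO BFP 17.76, 19.04 and 16.91. The knockout libraries with BFP all lay below both WT BFP libraries. No difference from WT BFP passed with all libraries, at −0.61 ± 0.40, −1.14 ± 0.40 and −0.73 ± 0.40 in ISL1 KO, PAX6 KO and PDX1 KO (edgeR, adjusted p = 0.424, 0.0983 and 0.281). The 95% intervals ran from −1.40 to 0.17, −1.93 to −0.36 and −1.52 to 0.06, so the fall of GPR119 in the same knockout lies outside each. In the reduced set the 3 differences passed (adjusted p = 0.0228, 3.31e-04 and 0.00617). All 7 neighbouring pairs of groups overlapped in GPR142. Most like it were PGF (0.89), MXRA7 (0.87), SMC2 (0.86) and FAIM2 (0.86), and its correlation with INS was 0.60. The annotated coding transcript GPR142-201 took 3.37% of the GPR142 count (0% to 15.5% by library), and 96.6% was assigned to GPR142-202, which GENCODE 29 classes as a target of nonsense-mediated decay.

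CASR (ENSG00000036828, chromosome 3, 122183683 to 122291629, plus strand) fell in all 3 knockouts. WT BFP libraries held 138.6 and 109.4 CPM. ISL1 KO BFP held 17.9, 27.8 and 21.9 CPM, PAX6 KO BFP 3.47, 1.71 and 3.50, and PDX1 KO BFP 4.18, 2.25 and 3.98. Every knockout library lay below WT, and PAX6 KO and PDX1 KO overlapped with each other below ISL1 KO. CASR fell by 5.42 ± 0.58 on the log2 scale in PAX6 KO BFP (edgeR, adjusted p = 1.44e-04) and changed by −5.16 ± 0.57 in PDX1 KO BFP (adjusted p = 2.08e-04), and both calls held in all 5 fits without 1 library. In ISL1 KO BFP it fell by 2.46 ± 0.57 (adjusted p = 0.0156), a call that held without ISL1 KO BFP replicate 2 and was lost without any of the 4 other libraries (adjusted p 0.058 to 0.112, fold change −2.63 to −2.27). ISL1 KO BFP stood above PAX6 KO BFP (2.96 ± 0.52, adjusted p = 0.00570) and PDX1 KO BFP (2.70 ± 0.52, adjusted p = 0.00709; 0.0562 without PDX1 KO BFP replicate 2). PAX6 KO and PDX1 KO did not differ detectably (−0.26 ± 0.52, 95% interval −1.29 to 0.77).

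The CASR means spanned 143-fold, from WT ISL1 OE and WT BFP, which overlapped, through ISL1 KO ISL1 OE, ISL1 KO BFP, PDX1 KO ISL1 OE, PDX1 KO BFP and PAX6 KO BFP to PAX6 KO ISL1 OE. Most like CASR were NPTX2 (0.92), KDR (0.92), PDZK1 (0.91) and GIP, an incretin gene (0.91). Its correlation with INS was 0.67 and with GHRL −0.74. The summed level of 7 gut endocrine markers, a list that holds GIP and CCK, moved with CASR: 409 to 670 CPM in WT BFP, 321 to 358 in ISL1 KO BFP, 54.3 to 58.6 in PAX6 KO BFP and at most 59.0 in PDX1 KO BFP. Of the 6 such markers tested 0 were called in ISL1 KO and 3 each were called lower in PAX6 KO and PDX1 KO. The part of such cells in the CASR result was not tested. PTH, the hormone gene of the parathyroid gland where CASR is best known, had 0 counts in all 21 libraries. CASR-204 took 66.9% of the CASR count (0% to 76.9% by library), CASR-201 16.5% (0% to 62.1%) and CASR-205 14.5% (2.83% to 37.9%). CASR-202 took 0.599%, but up to 70.6% in a single library.

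Among knockouts with BFP, 5 of the 7 receptors differed between ISL1 KO and PAX6 KO, where 2.78% of all genes were called. CASR and FFAR1 were higher in ISL1 KO, and GPR119, FFAR3 and FFAR4 higher in PAX6 KO, and these 5 were called in each fit that left out 1 library. Between ISL1 KO and PDX1 KO 3 receptors differed, beside 5.70% of all genes: CASR was higher and GPR119 and FFAR4 lower in ISL1 KO. PAX6 KO and PDX1 KO differed in 4, beside 3.61% of all genes, with FFAR3 and FFAR4 higher and GPR119 and FFAR1 lower in PAX6 KO. GPR142 was called in none of the 3 comparisons (0.53 ± 0.36, 0.12 ± 0.36 and −0.41 ± 0.36).

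The contrast of knockout and WT was repeated in libraries labelled ISL1 OE, which the BFP comparisons do not use. In PAX6 KO ISL1 OE against WT ISL1 OE the same 4 receptors were called in the same directions as with BFP, beside 4.25% of all genes. FFAR1 gave −8.51 ± 0.79 (edgeR, adjusted p = 2.84e-05), CASR −7.15 ± 0.59 (adjusted p = 2.14e-05), GPR119 −2.30 ± 0.27 (adjusted p = 1.15e-04) and FFAR4 2.20 ± 0.54 (adjusted p = 0.0429). The FFAR4 value leaned on PAX6 KO ISL1 OE replicate 3, without which it was 1.26 (adjusted p = 0.148), and it was also lost without WT ISL1 OE replicate 1 (0.261) or 2 (0.310). FFAR1 and CASR held their calls in each fit without 1 library, as did GPR119.

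In ISL1 KO ISL1 OE against WT ISL1 OE 2 receptors were called lower, beside 4.12% of all genes. GPR119 gave −2.47 ± 0.27 (edgeR, adjusted p = 7.91e-05). FFAR4 gave −2.53 ± 0.56 (adjusted p = 0.0165), a call that held without ISL1 KO ISL1 OE replicate 1 and was lost without any of the 4 other libraries (adjusted p 0.0731 to 0.106). CASR at −1.72 ± 0.57 and FFAR1 at −1.24 ± 0.65 did not pass (adjusted p = 0.0977 and 0.331) and passed in the reduced set (adjusted p = 3.84e-04 and 0.00705), beside 23.6% of all genes. In PDX1 KO ISL1 OE against WT ISL1 OE, where 0.779% of all genes were called, CASR alone was called (−3.02 ± 0.62, adjusted p = 0.0465). Without replicate 4 of PDX1 KO ISL1 OE its fold change was −5.26, and in the reduced set 5 receptors were called, beside 7.89% of all genes: CASR (−5.28 ± 0.41), FFAR1 (−3.46 ± 0.42), GPR142 (−1.65 ± 0.26) and GPR119 (−1.15 ± 0.31) lower and FFAR2 (0.81 ± 0.24) higher. The CASR call was lost without WT ISL1 OE replicate 1 or 2 (adjusted p = 0.390 and 0.151).

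**Figure D3:**
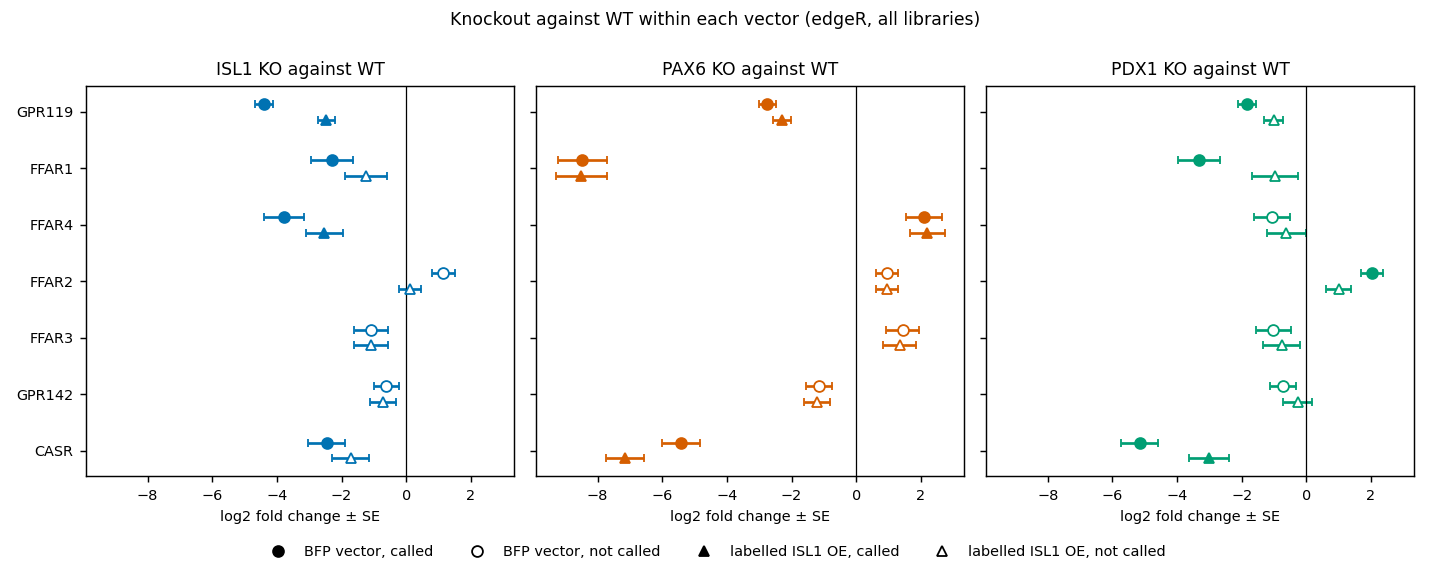
Log2 fold change ± SE of each knockout against WT for the 7 receptors, with circles for the BFP vector, triangles for libraries labelled ISL1 OE and filled symbols for called genes (edgeR, all libraries). In PAX6 KO the circles and triangles of FFAR1 (−8.47 and −8.51) and FFAR4 (2.09 and 2.20) nearly coincide, while in ISL1 KO the GPR119 triangle (−2.47) lies nearer 0 than its circle (−4.40).

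Within genotypes, the vector labelled ISL1 OE was set against BFP. In ISL1 KO GPR119 rose, and in WT and PAX6 KO no receptor was called. ISL1 KO BFP held 7.10, 14.9 and 7.68 CPM of GPR119 and ISL1 KO ISL1 OE 33.6, 38.5 and 39.8 CPM, without overlap and still below WT. The difference was 1.91 ± 0.24 on the log2 scale (edgeR, adjusted p = 0.00163), the 1 receptor called beside 0.423% of all genes, and it held in all 6 fits without 1 library (1.72 to 2.36). GCG rose in the same comparison (5.32 ± 0.81, adjusted p = 0.0180), from 80.5 to 3216 CPM on average. The 8 alpha cell markers, GCG among them, summed to 2695 to 5816 CPM with ISL1 OE against 654 to 700 with BFP. GCG makes up most of that rise and was the 1 marker of the 8 called. Of the delta cell markers HHEX was called higher (2.64 ± 0.28, adjusted p = 4.06e-04), and SST was not called (3.82 ± 0.81, adjusted p = 0.0741). The part of these markers in the GPR119 result was not tested. FFAR4 went from 0.194, 0.0642 and 0.359 to 1.01, 0.695 and 0.580 CPM, and FFAR2 from 28.3, 27.7 and 31.5 to 12.5, 13.8 and 12.6 CPM, beside 12.3 and 13.9 CPM in WT BFP, both without overlap. Neither passed with all libraries (1.86 ± 0.58 and −1.17 ± 0.31, adjusted p = 0.230 and 0.150), and both passed in the reduced set (adjusted p = 0.0170 and 4.61e-04, beside 5.91% of all genes) and with DESeq2 (adjusted p = 0.0438 and 0.0425, beside 1.78% of all genes). CASR (0.81 ± 0.51) and FFAR1 (0.70 ± 0.58) were not called. Their libraries did not overlap between the vectors, which alone does not show a change. ISL1 RNA itself did not differ detectably between these groups (0.11 ± 0.34), so the direction is that of the labels.

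In WT 0 receptors were called between vectors, beside 0.0360% of all genes, also with DESeq2 (0.272% of all genes) and at an unadjusted p under 0.05 (3.81%). The fold changes ran from −0.35 ± 0.71 for FFAR1 to 0.61 ± 0.60 for FFAR4, and that of GPR119 was −0.02 ± 0.29 (95% interval −0.59 to 0.56). In PAX6 KO 0 were called with edgeR or DESeq2, beside 0.414% and 2.51% of all genes. CASR alone had an unadjusted p under 0.05, beside 10.7% of all genes. CASR went from 3.47, 1.71 and 3.50 to 1.17, 1.03 and 0.526 CPM without overlap (−1.66 ± 0.54, adjusted p = 0.252) and passed in the reduced set (−1.38 ± 0.35, adjusted p = 0.0319). FFAR2 passed there too, beside 6.01% of all genes, at −0.80 ± 0.18 (adjusted p = 0.0177), against −0.14 ± 0.31 with replicate 3, which held 40.4 CPM next to 13.4 and 15.6 in its partners. FFAR1 remained at a few counts with either vector.

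In PDX1 KO the comparison turned on 1 library. With all libraries 4 receptors were called, beside 14.4% of all genes: CASR (2.21 ± 0.58, adjusted p = 0.0189), GPR119 (0.81 ± 0.27, adjusted p = 0.0490) and FFAR1 (1.98 ± 0.65, adjusted p = 0.0490) higher and FFAR2 (−1.17 ± 0.35, adjusted p = 0.0400) lower. PDX1 KO ISL1 OE replicates 2 and 4 held 3.36 and 28.8 CPM of CASR, 5.32 and 54.0 of FFAR1 and 8.04 and 33.8 of GPR142, on both sides of the PDX1 KO BFP libraries for FFAR1 and GPR142. In CPM after TMM scaling, GPR119 (93.2 and 111.9 CPM), FFAR4 (2.95 and 2.81) and FFAR2 (21.1 and 26.6) were alike in the 2 libraries. By TPM they were not: replicates 2 and 4 held 56.8 and 29.5 TPM of GPR119 and 1.46 and 0.623 TPM of FFAR4. FFAR2 was also lower in replicate 4 by TPM, so the likeness of these genes depends on the scaling. Without replicate 4 the fold change of CASR was −0.01 and that of FFAR1 −0.47, neither called. In the reduced set FFAR2 (−1.33 ± 0.23, adjusted p = 0.00212) and GPR142 (−1.13 ± 0.25, adjusted p = 0.0106) were called lower, beside 11.2% of all genes, and GPR119 gave 0.70 ± 0.30 (adjusted p = 0.132). In replicate 4 markers of many cell types stood high as well, the 8 beta cell markers summing to 45445 CPM against 736 in replicate 2 and the 6 liver markers to 23714 against 5351, and their part was not tested.

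**Figure D4:**
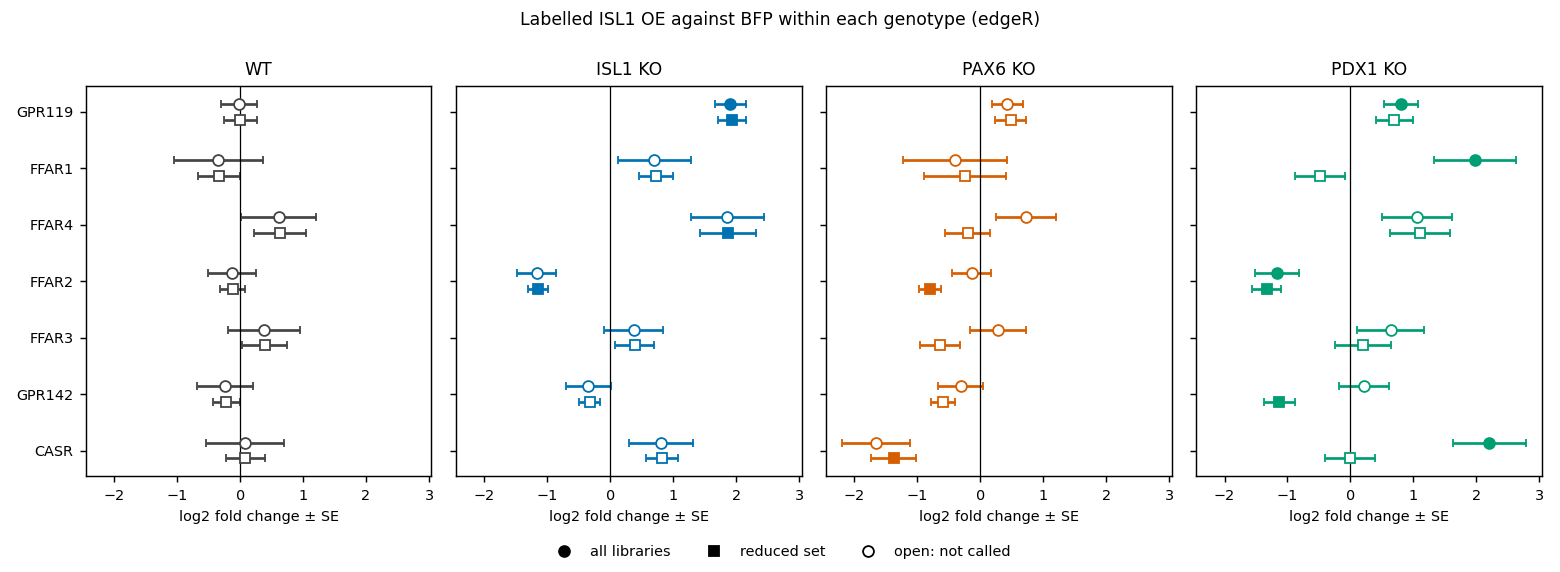
Log2 fold change ± SE of libraries labelled ISL1 OE against BFP within each genotype, with circles for all 21 libraries, squares for the 19 libraries of the reduced set and filled symbols for called genes (edgeR). GPR119 in ISL1 KO keeps its place (1.91 and 1.93), while in PDX1 KO the CASR and FFAR1 symbols move from 2.21 and 1.98 to −0.01 and −0.48.

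Whether the vector effect differed between a knockout and WT was tested directly. With edgeR and all libraries 0 receptors were called for ISL1 KO, PAX6 KO or PDX1 KO minus WT, beside 0.00450%, 0% and 1.36% of all genes. At an unadjusted p under 0.05 there were 1, 0 and 2 of 7, beside 2.94%, 3.38% and 16.8% of all genes. DESeq2 called 1, 0 and 0, beside 0.156%, 0.0380% and 5.72% of all genes. The largest for ISL1 KO was GPR119, where the vector effect exceeded that in WT by 1.93 ± 0.38 (adjusted p = 0.541). DESeq2 called it (1.95 ± 0.39, adjusted p = 0.00281), as did the reduced set (1.93 ± 0.33, adjusted p = 0.0258, beside 0.313% of all genes) and the fit without ISL1 KO BFP replicate 2 (2.35, adjusted p = 0.0184). In the reduced set FFAR2 was called for PDX1 KO (−1.20 ± 0.30, adjusted p = 0.0420), beside 3.27% of all genes.

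Over 6 lists of genes around the receptors, with 66 tested genes, 4 (6.06%) were called in ISL1 KO BFP, 6 (9.09%) in PAX6 KO BFP and 7 (10.6%) in PDX1 KO BFP against WT BFP, beside 6.52%, 6.65% and 11.4% of all genes, so these counts are near the background. Of 15 tested genes of the Gq arm (G proteins, phospholipases, IP3 receptors and protein kinases), 1 fell in ISL1 KO BFP against WT BFP and 0 were called in PAX6 KO, and in PDX1 KO 1 rose and 1 fell. PLCB1, a phospholipase C, fell by 1.01 ± 0.26 in ISL1 KO (edgeR, adjusted p = 0.0264), and in PDX1 KO ITPR2, an IP3 receptor, rose by 1.11 ± 0.20 (adjusted p = 0.00234) while PRKCA fell by 0.99 ± 0.30 (adjusted p = 0.0371). Of the 7 genes of the Gi and Gs arm GNAS, which encodes the Gs alpha subunit used by GPR119, fell by 1.70 ± 0.40 in ISL1 KO (adjusted p = 0.0161) and by 1.89 ± 0.40 in PAX6 KO (adjusted p = 0.00965), where GNAO1 rose by 1.12 ± 0.31 (adjusted p = 0.0463), and 0 were called in PDX1 KO. The list medians lay between −0.36 and 0.07 for these 2 lists, beside 0.00 to 0.03 over all genes.

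Of 10 arrestins, receptor kinases and RGS genes, 0 were called in ISL1 KO BFP, 2 fell in PAX6 KO BFP and 1 in PDX1 KO BFP. Over all genes 6.52%, 6.65% and 11.4% were called in these comparisons with WT BFP. RGS16, which speeds the turnover of Gi and Gq signals, fell by 1.72 ± 0.48 in PAX6 KO (edgeR, adjusted p = 0.0381) and by 1.97 ± 0.48 in PDX1 KO (adjusted p = 0.0128), and GRK5 fell by 1.20 ± 0.35 in PAX6 KO (adjusted p = 0.0484). Among 7 genes that work with CASR or under its control, PTHLH, the gene of parathyroid hormone-related protein, rose in each knockout, by 1.86 ± 0.42, 1.94 ± 0.42 and 3.08 ± 0.42 in ISL1 KO, PAX6 KO and PDX1 KO (adjusted p = 0.0218, 0.0176 and 8.97e-04). RAMP1, a chaperone subunit that carries such receptors to the cell surface, fell by 1.70 ± 0.34 in PDX1 KO (adjusted p = 0.00355).

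In the list of 12 genes of lipid uptake and turnover, LPL, which frees fatty acids from triglycerides, fell in each knockout with BFP. Its log2 fold changes were −1.90 ± 0.55, −3.25 ± 0.55 and −2.90 ± 0.55 in ISL1 KO, PAX6 KO and PDX1 KO (edgeR, adjusted p = 0.0464, 0.00287 and 0.00324). PNPLA2, a triglyceride lipase inside cells, rose by 1.05 ± 0.22 in PDX1 KO (adjusted p = 0.00617), and no other gene of this list was called in these 3 comparisons. Of 15 tested genes for other nutrient and metabolite receptors, 0 were called in any of the 3 (edgeR), beside 6.52%, 6.65% and 11.4% of all genes. Between vectors in ISL1 KO, 0 of the 66 genes of these 6 lists were called, beside 0.423% of all genes. In PDX1 KO, where 1 library decides, 14 of 66 (21.2%) were, beside 14.4% of all genes, with RAMP1 (2.90 ± 0.34, adjusted p = 1.14e-04) and RGS16 (2.61 ± 0.48, adjusted p = 0.00303) higher and ITPR2 (−1.09 ± 0.20, adjusted p = 0.00316) lower.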

How the data were processed

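Bulk RNA of 21 libraries in 8 groups was analysed. Extraction used the Quick-RNA kit of Zymo and libraries were made with SMART-Seq v4 and KAPA EvoPrep reagents, per the labels' protocols. The authors deposited estimated counts per gene and per transcript for each sequencing lane, as the tables' non-whole values show. The authors also deposited TPM values, which divide by transcript length, per gene and lane. The submitters' processing notes name STAR and GRCh38, and the counting program is not named in them. The 4 lanes of a library were summed for counts, which were then rounded, and averaged for TPM, and the lowest correlation between lanes of a library was 0.990. The table has 12 more columns, from 3 libraries whose names fit none of the labels, which stayed unused. Genes with low counts were removed with filterByExpr.

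Counts were fitted with edgeR 4.0.16 in R 4.3.3 (TMM factors 0.707 to 1.15, 1 mean for each of the 8 groups, quasi-likelihood F test, Benjamini-Hochberg adjustment over 22207 genes), with calls at an adjusted p under 0.05. DESeq2 1.42.0, other scalings, filters and sample sets were alternatives, and a term for the lane set (1 to 4 or 5 to 8) was added after seeing the data. SEs are Wald SEs. The replicates are separate samples whose independence beyond the series' term is not described, so p-values measure the spread between these samples. Libraries held 40959445 to 66818593 counts, and without molecular identifiers these are not independent molecules.

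The genes named are the 7 receptors, GPR42, the altered and hormone genes, the 4 genes most correlated with each receptor, and up to 4 called genes of each pathway list per comparison; marker genes such as CHGA, PTPRC and PTH were named in addition. The receptors and lists were chosen with earlier results of these data known. Replicate numbers pair the vectors in PAX6 KO, where deviations of same-numbered libraries correlated at 0.176, 0.382 and 0.345. In the PAX6 KO vector comparison the replicate block changed no receptor's call.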

Additional observations from a re-analysis of the deposited data

How the results depend on the processing

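Changes in the counts of receptors called include the following, with the share of all genes called beside them. With only the groups compared in the fit, 7 were called in ISL1 KO and 7 in PAX6 KO against WT with BFP (28.2% and 24.3%). PDX1 KO gained FFAR4 and GPR142 there (33.3%). In ISL1 KO against PDX1 KO 5 were called (26.3%), and PAX6 KO against PDX1 KO gained FFAR2 (15.5%). Between vectors 4 were called in ISL1 KO (7.31%) and 0 in PDX1 KO (0%). With the vector labelled ISL1 OE, 6, 2 and 0 were called in ISL1 KO, PAX6 KO and PDX1 KO against WT (27.7%, 0.174% and 0%). For the vector effect in ISL1 KO minus WT 1 was called (0.466%). Without both libraries that stand apart, 7 were called in each knockout against WT with BFP, 5 in ISL1 KO against PDX1 KO, 3, 2 and 2 between vectors in ISL1 KO, PAX6 KO and PDX1 KO, 6 and 5 in ISL1 KO and PDX1 KO against WT with the vector labelled ISL1 OE, and 1 each for the vector effect in ISL1 KO and in PDX1 KO minus WT. The shares of all genes for these counts of the reduced set stand with the results above. That set also gained GPR142 in PAX6 KO ISL1 OE against WT ISL1 OE (14.4%) and FFAR2 in PAX6 KO BFP against PDX1 KO BFP (20.1%). DESeq2 called 3 between vectors in ISL1 KO (1.78%) and 2 in PDX1 KO ISL1 OE against WT ISL1 OE (3.05%). For the vector effect in ISL1 KO minus WT DESeq2 called 1 (0.156%). It also gained FFAR2 in ISL1 KO BFP against WT BFP (adjusted p = 0.0302) and in PAX6 KO BFP against PDX1 KO BFP (adjusted p = 0.0278). CASR was gained by DESeq2 in ISL1 KO ISL1 OE against WT ISL1 OE (adjusted p = 0.0413). Over all genes DESeq2 called 11.7%, 7.35% and 8.82% in the comparisons of these 3 gains. Between vectors in PDX1 KO, 2 were called with no filter (7.84%), 2 with library size alone (9.50%) and 2 with the lane set term (10.8%). In PDX1 KO ISL1 OE against WT ISL1 OE, 0 were called with DESeq2's size factors in edgeR, a mean CPM of at least 1, the replicate block or the lane set term. Over all genes 0.761%, 1.10%, 0.671% and 0.486% were called in these 4 fits. In the fits of only the groups compared and of the reduced set, calls over all genes shifted too. They rose, for example, to 28.2% and 28.4% of genes in ISL1 KO against WT with BFP from 6.52%, and to 26.3% and 26.0% in ISL1 KO against PDX1 KO from 5.70%. With only the groups compared, they rose to 7.31% from 0.423% between vectors in ISL1 KO and fell to 0% from 14.4% in PDX1 KO. Against WT with the vector labelled ISL1 OE, they fell in that fit to 0.174% from 4.25% in PAX6 KO and to 0% from 0.779% in PDX1 KO. The cause of these shifts was not tested.

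Leaving out 1 library at a time gave 2 to 3 receptors in ISL1 KO and 3 in PAX6 KO against WT with BFP, 3 to 4 in PDX1 KO, 2 to 3 in ISL1 KO against PDX1 KO and 2 to 3 in PAX6 KO against PDX1 KO. Between vectors in PDX1 KO it gave 0 to 4. With the vector labelled ISL1 OE it gave 1 to 2 in ISL1 KO, 3 to 4 in PAX6 KO and 0 to 3 in PDX1 KO against WT. The vector effect minus that in WT gave 0 to 1 in ISL1 KO and 0 to 3 in PDX1 KO, the 3 being CASR, FFAR1 and GPR142 without PDX1 KO ISL1 OE replicate 2. Where a group kept 1 library, that library was assumed to vary like the other groups. The share of all genes called in each of these fits is not given here, so these counts do not set the receptors apart from other genes.

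Over the 7 receptors in 16 comparisons, 28 results changed sign under some alternative, 26 of which were not called with all libraries. The 2 that were called there were FFAR1 and CASR between vectors in PDX1 KO, and GPR142 in that comparison was called with the other sign: without both libraries FFAR1 gave −0.48, GPR142 −1.13 and CASR −0.01, and over the fits without 1 library FFAR1 ran from −0.47 to 2.92 and CASR from −0.01 to 3.13. Among uncalled results, those between vectors in PAX6 KO ran from −1.31 to 0.73 for FFAR1, −0.22 to 1.17 for FFAR4, −0.81 to 0.20 for FFAR2 and −0.65 to 0.69 for FFAR3 over all alternatives. With all libraries they carry no direction. Of these FFAR2 was called lower in the reduced set (−0.80 ± 0.18), as given above. The replicate block gained FFAR2 in ISL1 KO BFP against WT BFP (1.15, adjusted p = 0.0319) and in PAX6 KO BFP against PDX1 KO BFP (−1.08, adjusted p = 0.0329), lost CASR in PDX1 KO ISL1 OE against WT ISL1 OE (adjusted p = 0.0940) and changed no other call. In ISL1 KO same-numbered libraries correlated at 0.172, 0.0987 and 0.306, each best with its own number, and WT and PDX1 KO share too few numbers to pair. With library size alone FFAR2 was called in ISL1 KO (adjusted p = 0.0206) and PAX6 KO (adjusted p = 0.0362) and FFAR1 was not in ISL1 KO (adjusted p = 0.0577). By TPM in place of CPM, the order of the groups changed for 2 groups in GPR119, 3 in FFAR1, 4 each in FFAR2 and FFAR3, 5 in GPR142 and 0 in FFAR4 and CASR. Depth limits FFAR1 in PAX6 KO, FFAR4 in ISL1 KO and GPR42, which rest on few counts.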
